A study of Homo sapiens with 14 samples.

Results

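Laminins are large glycoproteins of the basement membrane, the sheet of matrix under epithelia, and 8 genes of their chains are described here in human ovarian cancer cells treated with an inhibitor of histone demethylases. The 8 genes are LAMA1, LAMA3, LAMA4, LAMA5, LAMB1, LAMB2, LAMB3 and LAMC1, out of 58825 genes in the count tables. They were chosen by name and with their CPM (counts scaled to a common library size) known in every line and time, so their values in GSK-J4 and GSK-J5 cells are given as a description, without p-values.

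RNA was sequenced from OVCAR-3, CAOV3 and SKOV3, established lines from human ovarian cancers, in 22 libraries. The libraries held cells given GSK-J4 or GSK-J5 at 2.5 µM, for 48 h in OVCAR-3 (2 libraries per compound) and for 72 h in OVCAR-3, CAOV3 and SKOV3 (3 libraries per compound and line). GSK-J4 enters cells and inhibits KDM6A (UTX) and KDM6B (JMJD3), enzymes that take repressive methyl marks off histones, and GSK-J5 is its inactive isomer. No untreated library was analysed, so an effect here is that of GSK-J4 against GSK-J5. Replicates 1 and 2 of each group share 1 sample label, and replicate 3 has its own. The labels do not tell whether replicates came from separate cultures, and p-values then cover only the spread between the libraries sequenced. Fits of replicates 1 and 2 alone therefore rest on libraries that share a sample label within each group. Replicate 3 was a second library set in every line: its labels name another RNA kit, poly(A) selection and media with stated serum, while those of replicates 1 and 2 name stripped media. The protocol text of the second set gives a span of 48 to 72 h, and the titles give 72 h.

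A laminin molecule joins an alpha, a beta and a gamma chain, and the alpha chain binds the cell's receptors. LAMA5 joins LAMB1 or LAMB2 and LAMC1 in the main laminins of mature epithelial basement membranes, whereas LAMA3 and LAMB3 belong to the laminin that anchors epithelial cells at hemidesmosomes. LAMA1 is the alpha chain of early embryonic basement membranes and LAMA4 that of blood vessels and mesenchyme. Ovarian surface epithelium rests on such a basement membrane, and tumour cells that spread in the peritoneal cavity meet laminins again under the mesothelium.

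Results in OVCAR-3 turn on LAMA3 and LAMB3, which were higher with GSK-J4, and on LAMA5 and LAMB2, which were lower, so the windows around their transcription starts are shown. Each runs from 250 bases before to 50 bases after a RefSeq start on GRCh38.p14 and is written 5′ to 3′ on the strand of the gene, and 7 of the 8 genes had such a window. Capitals mark AP-1 sites (TGACTCA or TGAGTCA) and GC boxes (GGGCGG or CCGCCC), searched on both strands. The LAMA3 window (chr18:23872770-23873069, plus strand) starts the short alpha 3A form and lies 184 kb inside the gene. LAMB3 had 3 windows, and those shown (chr1:209652376-209652675 and chr1:209651325-209651624, minus strand) belong to different starts of the gene. The window not shown (chr1:209652280-209652579) overlaps the outer one and held 1 GC box and no AP-1 site. The LAMA5 window (chr20:62367263-62367562) and the LAMB2 window (chr3:49133001-49133300) are also on the minus strand.
LAMA3: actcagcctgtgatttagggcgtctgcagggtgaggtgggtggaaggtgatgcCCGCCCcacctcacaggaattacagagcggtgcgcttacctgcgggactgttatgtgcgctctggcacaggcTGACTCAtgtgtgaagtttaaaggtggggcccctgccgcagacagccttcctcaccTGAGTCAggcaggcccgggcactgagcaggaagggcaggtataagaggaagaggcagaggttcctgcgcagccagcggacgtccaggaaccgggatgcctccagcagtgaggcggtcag
LAMB3, outer start: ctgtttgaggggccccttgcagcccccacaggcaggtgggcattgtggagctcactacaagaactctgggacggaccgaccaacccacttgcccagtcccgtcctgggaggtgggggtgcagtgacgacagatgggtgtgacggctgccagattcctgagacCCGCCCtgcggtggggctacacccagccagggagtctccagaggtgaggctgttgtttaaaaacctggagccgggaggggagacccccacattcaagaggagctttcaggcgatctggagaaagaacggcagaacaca
LAMB3, inner start: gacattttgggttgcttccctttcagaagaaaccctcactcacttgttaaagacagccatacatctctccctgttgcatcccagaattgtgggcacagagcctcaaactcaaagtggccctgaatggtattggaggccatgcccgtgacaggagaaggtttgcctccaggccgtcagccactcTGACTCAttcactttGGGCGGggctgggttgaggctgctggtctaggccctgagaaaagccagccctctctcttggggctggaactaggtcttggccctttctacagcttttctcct
LAMA5: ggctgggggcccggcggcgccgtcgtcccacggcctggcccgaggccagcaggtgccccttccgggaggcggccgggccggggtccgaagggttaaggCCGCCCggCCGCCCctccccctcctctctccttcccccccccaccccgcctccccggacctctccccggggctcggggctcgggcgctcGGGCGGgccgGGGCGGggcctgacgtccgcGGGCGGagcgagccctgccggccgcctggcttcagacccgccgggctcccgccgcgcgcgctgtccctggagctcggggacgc
LAMB2: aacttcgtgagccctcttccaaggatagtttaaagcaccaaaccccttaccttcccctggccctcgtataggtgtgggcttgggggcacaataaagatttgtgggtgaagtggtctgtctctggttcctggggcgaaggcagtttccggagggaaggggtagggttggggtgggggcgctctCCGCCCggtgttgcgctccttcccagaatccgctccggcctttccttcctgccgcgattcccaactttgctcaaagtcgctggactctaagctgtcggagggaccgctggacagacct

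The LAMA3 window held 2 AP-1 sites and 1 GC box, and the inner LAMB3 window held 1 AP-1 site beside 1 GC box. The LAMA5 window held 5 GC boxes and no AP-1 site, with 82.7% G and C and 41 CpG pairs. The LAMB2 window held 1 GC box, with 58.7% G and C and 15 CpG pairs. Among all 35116 RefSeq windows, 4.95% held an AP-1 site of these letters and 45.0% a GC box, and the median content of G and C was 58.7%. Other motifs searched had no match in the windows shown. The TEAD motif (CATTCC or GGAATG) was in 14.03% of all windows. The E-box letters CACGTG were in 7.26% of them, and the TATA box letters TATAAA, on either strand, in 11.5%. No match overlapped another in the windows shown. These matches describe letters in the windows, not binding.

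The genes lie apart in the genome. On GRCh38 with GENCODE 29 the alpha chains are LAMA1 (ENSG00000101680.15) on chromosome 18 from 6941744 to 7117814, minus strand; LAMA3 (ENSG00000053747.16) on chromosome 18 from 23689443 to 23956222, plus strand; LAMA4 (ENSG00000112769.19) on chromosome 6 from 112108760 to 112254939, minus strand; and LAMA5 (ENSG00000130702.15) on chromosome 20 from 62307955 to 62367312, minus strand. The beta chains are LAMB1 (ENSG00000091136.14) on chromosome 7 from 107923799 to 108003255, minus strand; LAMB2 (ENSG00000172037.14) on chromosome 3 from 49121114 to 49133118, minus strand; and LAMB3 (ENSG00000196878.15) on chromosome 1 from 209614870 to 209652466, minus strand. The gamma chain is LAMC1 (ENSG00000135862.6) on chromosome 1 from 183023460 to 183145592, plus strand. All 8 are protein-coding, and the counts are of whole genes, so forms such as alpha 3A were not told apart.

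Over the 22 libraries, totals ran from 24037007 to 37990707 counts, so that 3 counts, the upper limit that a count of 0 allows, were 0.0790 to 0.125 CPM, for counting error only. The epithelial markers EPCAM, KRT8, KRT18, KRT19 and CDH1 were detected in every line, with a summed level of 8144 to 9194 CPM in OVCAR-3 cells with GSK-J5 at 72 h, 5109 to 5402 CPM in CAOV3 and 695 to 1743 CPM in SKOV3. In OVCAR-3 the libraries of 72 h with GSK-J4 were unlike each other: 14714, 14680 and 16231 genes had at least 10 counts in replicates 1, 2 and 3, against 16444, 16504 and 16492 with GSK-J5. In SKOV3 replicate 3 stood apart from replicates 1 and 2 with both compounds. The main OVCAR-3 changes at 72 h and the counts of calls are therefore also given for replicates 1 and 2 alone. In bulk RNA, fewer cells of a type and less RNA per cell cannot be told apart.

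Without GSK-J4, each line had its own set of laminin chains. CPM divided by the length of a gene's exons (CPM per kb) were used to compare chains within a class. They depend on which forms of a gene are made, which whole-gene counts do not show. If LAMA3 were mostly the short alpha 3A form, its true share would be higher than given here. In OVCAR-3 cells with GSK-J5 at 72 h, LAMA5 made up 92.1% ± 1.05 of the alpha chains (mean ± SD, n = 3) and LAMB2 72.4% ± 1.58 of the beta chains. CAOV3 differed in its alpha chains: LAMA3 held 64.8% ± 0.833 and LAMA5 33.3% ± 0.624. In SKOV3, LAMA5 again led the alpha chains with 83.1% ± 2.86, but LAMB3 led the beta chains with 65.7% ± 3.66. With the longest transcript in place of all exons, LAMA3 held 66.7% ± 0.844 of the alpha chains in CAOV3. Of the LAMA3 and LAMA5 shares in all groups, 8 moved by more than their SD with that length and 8 did not.

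LAMA3 differed strongly between lines. It had 52.0, 52.9 and 39.2 CPM in replicates 1 to 3 of OVCAR-3 with GSK-J5 at 72 h, against 982, 1079.8 and 1121 CPM in CAOV3 and 114, 103 and 31.4 CPM in SKOV3. The lowest CAOV3 library was far above every library of the other lines, and OVCAR-3 and SKOV3 overlapped because SKOV3 replicate 3 was low. The fitted OVCAR-3 level was 22.8-fold lower than that of CAOV3 (log2 -4.51 ± 0.35, SE). LAMC1 had 353, 395 and 439 CPM in OVCAR-3, 126, 118 and 138 CPM in CAOV3 and 1538, 1609 and 774 CPM in SKOV3. These ranges did not overlap, and LAMC1 was 10.0-fold lower in CAOV3 than in SKOV3. LAMB3 was also highest in SKOV3: it had 49.3 to 64.9 CPM in OVCAR-3 and 67.8 to 90.1 CPM in CAOV3, against 535, 519 and 323 CPM in SKOV3.

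LAMA1 and LAMA4 were minor chains. LAMA1 had 19.5, 21.2 and 11.6 CPM in OVCAR-3 and 31.9, 28.0 and 25.4 CPM in CAOV3, against 0.930, 1.42 and 2.66 CPM in SKOV3, and was 10.6-fold higher in OVCAR-3 than in SKOV3, or 17.4-fold with replicates 1 and 2 alone. LAMA4 had no more than 2.11 CPM in any OVCAR-3 library of 72 h and 3.11 CPM in CAOV3, against 11.7, 14.3 and 2.91 CPM in SKOV3, whose replicate 3 lay within the CAOV3 range. LAMA5, LAMB1 and LAMB2 differed less: by group means over OVCAR-3, CAOV3 and SKOV3, LAMA5 had 768 ± 33.5, 530.0 ± 27.5 and 493 ± 197 CPM, and LAMB2 had 426 ± 71.3, 252 ± 40.5 and 209 ± 6.52 CPM (SD, n = 3). The OVCAR-3 values of LAMA5 and LAMB2 lay above every library of the other lines, and those of CAOV3 and SKOV3 overlapped for LAMA5. LAMB1 had 94.5 ± 4.35 CPM in OVCAR-3, below every library of CAOV3 (218 ± 4.16 CPM) and SKOV3 (159.6 ± 48.4 CPM). The edgeR fit called 4 of the 8 chains between OVCAR-3 and CAOV3, where 54.5% of all genes tested were called, 7 between OVCAR-3 and SKOV3 (57.5%) and 6 between CAOV3 and SKOV3 (59.8%). With replicates 1 and 2 alone it called 8 (62.2%), 8 (64.7%) and 7 (67.2%). The chains were listed with these levels known, so nothing is read from these counts.

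**Figure D1:**
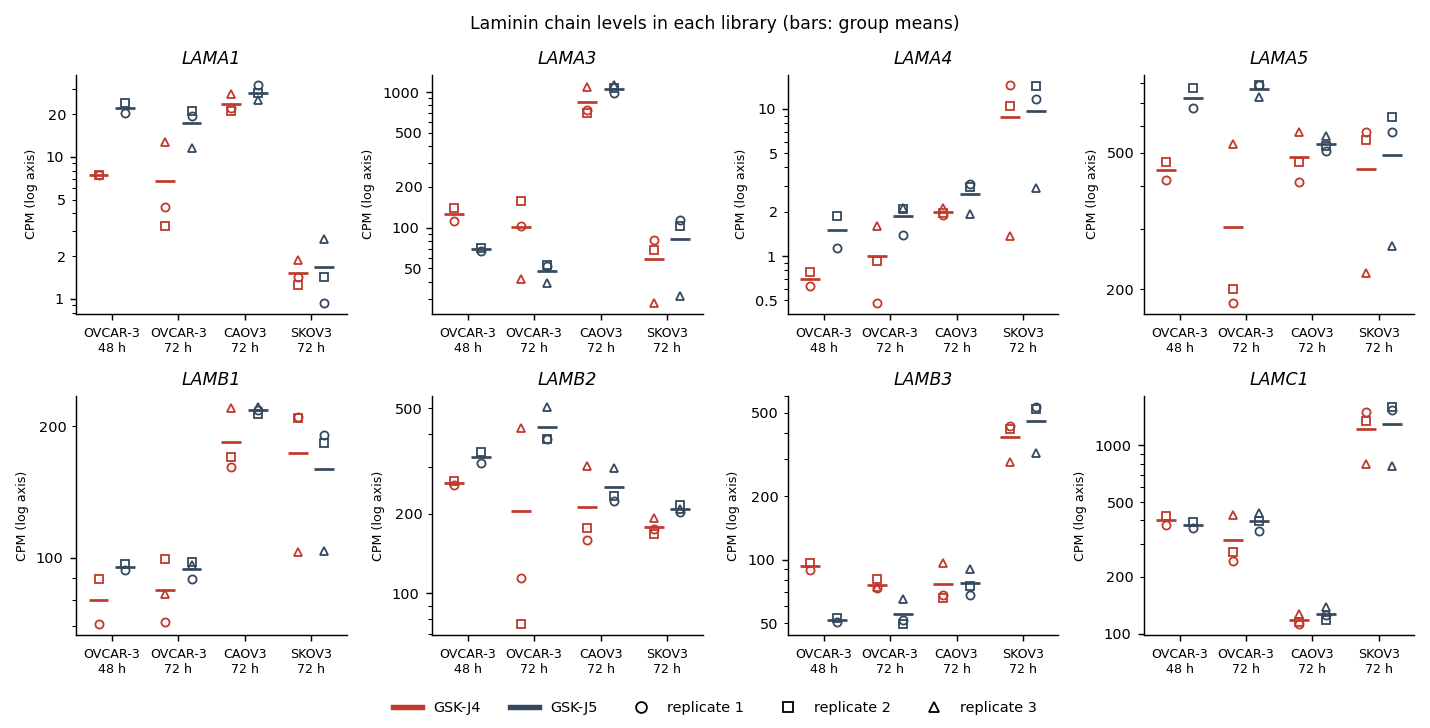
Level of each laminin chain in every library, in CPM on a log axis, by line and time, with GSK-J4 left of GSK-J5; horizontal bars are group means and symbols mark the replicate number. LAMA3 is highest in CAOV3, LAMC1 and LAMB3 are highest in SKOV3, and in OVCAR-3 replicates 1 and 2 of LAMA5 and LAMB2 with GSK-J4 at 72 h lie far below the rest.

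In OVCAR-3, the alpha chains moved apart with GSK-J4: LAMA5 and LAMA1 were lower and LAMA3 was higher at both times. LAMA5 had 418 and 472 CPM at 48 h with GSK-J4, against 676 and 775 CPM with GSK-J5. At 72 h LAMA5 had 182, 199.6 and 530.3 CPM in replicates 1 to 3 with GSK-J4, against 788, 787 and 729.5 CPM with GSK-J5. Every GSK-J4 library lay below every GSK-J5 library at both times, and at 72 h replicate 3 was the closest. The fitted log2 change of LAMA5 was -0.68 ± 0.32 (SE) at 48 h and -1.54 ± 0.33 at 72 h, 2.91-fold lower with GSK-J4. With replicates 1 and 2 alone it was -1.97 ± 0.10 at 72 h.

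LAMA3 went the other way. It had 113 and 140.4 CPM at 48 h with GSK-J4, against 67.3 and 71.2 CPM with GSK-J5, a log2 change of 0.90 ± 0.35. At 72 h it had 102, 157 and 42.0 CPM with GSK-J4, against 52.0, 52.9 and 39.2 CPM with GSK-J5, a log2 change of 0.90 ± 0.34 (1.86-fold higher), and 1.37 ± 0.19 with replicates 1 and 2 alone. Replicates 1 and 2 with GSK-J4 stood above every GSK-J5 library at 72 h, and replicate 3 fell among them. LAMA1, far lower in level, had 7.46 and 7.47 CPM at 48 h with GSK-J4, against 20.5 and 24.1 CPM with GSK-J5. At 72 h it had 4.45, 3.24 and 12.7 CPM with GSK-J4, against 19.5, 21.2 and 11.6 CPM with GSK-J5, log2 -1.59 ± 0.55. The log2 change with replicates 1 and 2 alone was -2.33 ± 0.19 (5.03-fold lower). Only replicate 3 overlapped, where the GSK-J4 library was slightly the higher of its pair. LAMA4 had at most 2.11 CPM in any OVCAR-3 library, with group means of 1.00 ± 0.567 CPM with GSK-J4 and 1.87 ± 0.408 CPM with GSK-J5 at 72 h (SD, n = 3). The libraries of LAMA4 overlapped at 72 h, and at 48 h the GSK-J4 libraries (0.630 and 0.773 CPM) lay below the GSK-J5 libraries (1.14 and 1.88 CPM).

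Among the beta chains, LAMB2 was lower with GSK-J4 and LAMB3 higher, while the LAMB1 libraries overlapped at 72 h. LAMB2 had 257 and 266 CPM at 48 h with GSK-J4, against 311 and 341 CPM with GSK-J5. At 72 h LAMB2 had 114, 76.4 and 423 CPM with GSK-J4, against 384, 385 and 508 CPM with GSK-J5. Replicates 1 and 2 with GSK-J4 were far below every other OVCAR-3 library at 72 h, and replicate 3 lay within the GSK-J5 range. The log2 change of LAMB2 was -0.29 ± 0.37 at 48 h and -1.45 ± 0.39 at 72 h (2.74-fold lower). With replicates 1 and 2 alone it was -1.94 ± 0.19 at 72 h. LAMB3 had 89.8 and 96.5 CPM at 48 h with GSK-J4, against 50.4 and 53.2 CPM with GSK-J5, log2 0.88 ± 0.17 (1.84-fold higher). At 72 h it had 73.5, 81.3 and 73.9 CPM with GSK-J4, against 51.7, 49.3 and 64.9 CPM with GSK-J5, log2 0.46 ± 0.18, and 0.69 ± 0.10 with replicates 1 and 2 alone. LAMB3 was the chain whose GSK-J4 libraries lay above all GSK-J5 libraries at both times, replicate 3 included. LAMB1 had 71.3, 99.7 and 82.9 CPM at 72 h with GSK-J4, against 89.5, 97.6 and 96.3 CPM with GSK-J5, which overlapped (log2 -0.18 ± 0.18). At 48 h it had 70.5 and 89.5 CPM with GSK-J4, below the 93.6 and 96.6 CPM with GSK-J5 (log2 -0.22 ± 0.20).

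LAMC1, the gamma chain shared by most laminins, had 377 and 424 CPM at 48 h with GSK-J4, against 366 and 394 CPM with GSK-J5. At 72 h it had 244, 270.2 and 427 CPM with GSK-J4, against 353, 395 and 439 CPM with GSK-J5. The compounds overlapped at both times: at 72 h replicates 1 and 2 with GSK-J4 lay below every GSK-J5 library and replicate 3 lay among them. The log2 change was 0.10 ± 0.16 at 48 h and -0.39 ± 0.17 at 72 h, and -0.47 ± 0.11 at 72 h with replicates 1 and 2 alone.

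**Figure D2:**
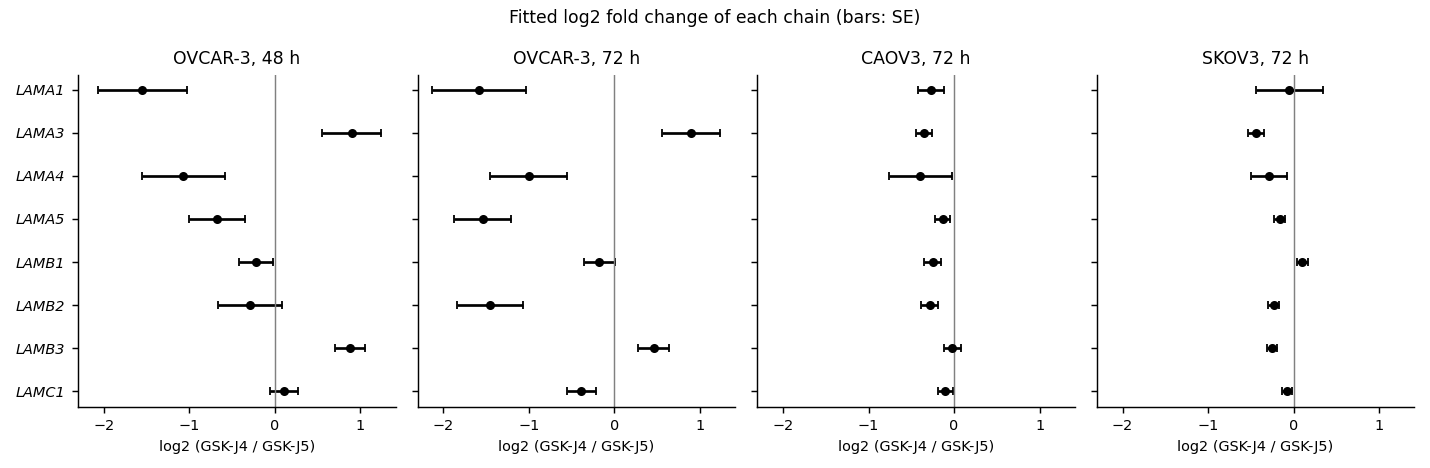
Fitted log2 change of each chain with GSK-J4 relative to GSK-J5, by line and time; points are edgeR estimates and bars are SE. In OVCAR-3 LAMA3 and LAMB3 lie above 0 and LAMA1, LAMA4, LAMA5 and LAMB2 below it, while in CAOV3 and SKOV3 every estimate lies between -0.44 and 0.10.

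All 8 chains passed the filter on low counts in every comparison. At an adjusted p under 0.05 (Benjamini-Hochberg over all genes), edgeR called 0 of 8 in OVCAR-3 at 72 h, where 0.0298% of the 16802 genes tested were called, while 5 were under an unadjusted p of 0.05 (43.1% of genes) and DESeq2 called 4 (37.7% of genes). With replicates 1 and 2 alone it called 7 of 8, LAMA3 and LAMB3 higher and LAMA1, LAMA4, LAMA5, LAMB2 and LAMC1 lower, where 71.7% of genes were called. At 48 h it called 1 (LAMB3), against 18.9% of genes, and with replicates 1 and 2 alone 5, against 59.0%. The median log2 change of the 8 chains at 72 h was -0.70, and that of all genes -0.08. The libraries of the 2 compounds did not overlap for 2 chains at 72 h (38.4% of genes) and for 7 at 48 h (80.7% of genes). The chains were listed with these contrasts known, so nothing is read from these counts.

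For LAMA5, LAMB2, LAMA3 and LAMB3 the OVCAR-3 replicates differed in the size of the ratio and not in its sign. In the same-numbered pairs of replicates 1, 2 and 3 at 72 h, the log2 ratio of GSK-J4 to GSK-J5 was -2.12, -1.98 and -0.46 for LAMA5. It was -1.75, -2.33 and -0.27 for LAMB2. It was 0.98, 1.57 and 0.10 for LAMA3. Replicate 3 had the same sign in these chains at a small part of the size. The pairs of 48 h gave -0.69 and -0.72 for LAMA5 and -0.27 and -0.36 for LAMB2, closer to replicate 3 than to replicates 1 and 2 of 72 h. For LAMA1 they gave -1.46 and -1.68, closer to replicates 1 and 2 of 72 h than to replicate 3. For LAMA3 they gave 0.75 and 0.98, both closer to replicate 1 of 72 h than to replicate 3. The LAMA3 value of 0.75 lay closer to replicate 3 than to replicate 2. LAMB3 had ratios of 0.83 and 0.86 at 48 h and 0.51, 0.72 and 0.19 at 72 h. For LAMA1 replicate 3 had the opposite sign, with -2.12, -2.71 and 0.12 at 72 h. The summed CPM of the epithelial markers also differed between the compounds: it was 4155 to 4287 CPM in GSK-J4 cells and 8758 to 8792 CPM in GSK-J5 cells at 48 h, and 5153 to 8199 CPM in GSK-J4 cells and 8144 to 9194 CPM in GSK-J5 cells at 72 h. At 48 h 15606 and 15406 genes reached 10 counts in GSK-J4 cells, against 16425 and 16576 in GSK-J5 cells. The part of these markers, of the detected genes and of the RNA kit and medium in the ratios was not tested.

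**Figure D3:**
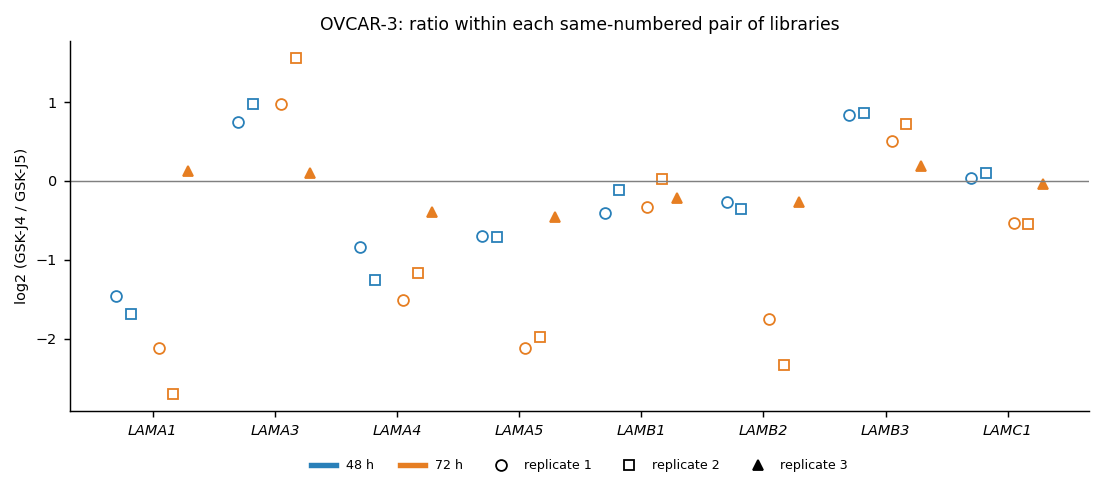
Log2 ratio of GSK-J4 to GSK-J5 in each same-numbered pair of OVCAR-3 libraries, by chain; colours give the time and symbols the replicate. The filled triangles of replicate 3 lie closer to 0 than replicates 1 and 2 of 72 h for every chain except LAMB1, where replicate 2 is at 0.03.

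The make-up of the chain classes moved with these values. Among the alpha chains of OVCAR-3 at 72 h, the LAMA3 share was 34.8%, 42.6% and 6.98% in replicates 1 to 3 with GSK-J4, against 5.89%, 5.97% and 4.87% in GSK-J5 cells. The LAMA5 share was 63.4%, 55.8% and 90.5% with GSK-J4, against 91.7%, 91.3% and 93.3% in GSK-J5 cells. Both shares in all 3 GSK-J4 libraries lay outside the GSK-J5 range, replicate 3 by little. Among the beta chains, the LAMB3 share was 38.1%, 42.6% and 18% with GSK-J4, against 14.1%, 13.4% and 13.9% in GSK-J5 cells. At 48 h the LAMA3 share was 20.5% and 22.1% in GSK-J4 cells, against 8.58% and 7.96% in GSK-J5 cells. At that time the LAMB3 share was 29.3% and 29.3% in GSK-J4 cells, against 15.9% and 15.5% in GSK-J5 cells. Both shares were higher in every GSK-J4 library of 48 h. The LAMA3 share in CAOV3 averaged 61.4% ± 2.79 with GSK-J4 and 64.8% ± 0.833 with GSK-J5, and the LAMB3 share in SKOV3 63.0% ± 2.21 with GSK-J4 and 65.7% ± 3.66 with GSK-J5 (SD, n = 3), differences of a few percentage points. The summed alpha chains had 28.7 ± 10.9 CPM per kb with GSK-J4 and 58.4 ± 3.18 CPM per kb with GSK-J5 at 72 h (SD, n = 3), and the summed beta chains 56.5 ± 26.9 with GSK-J4 and 85.4 ± 12.4 with GSK-J5.

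**Figure D4:**
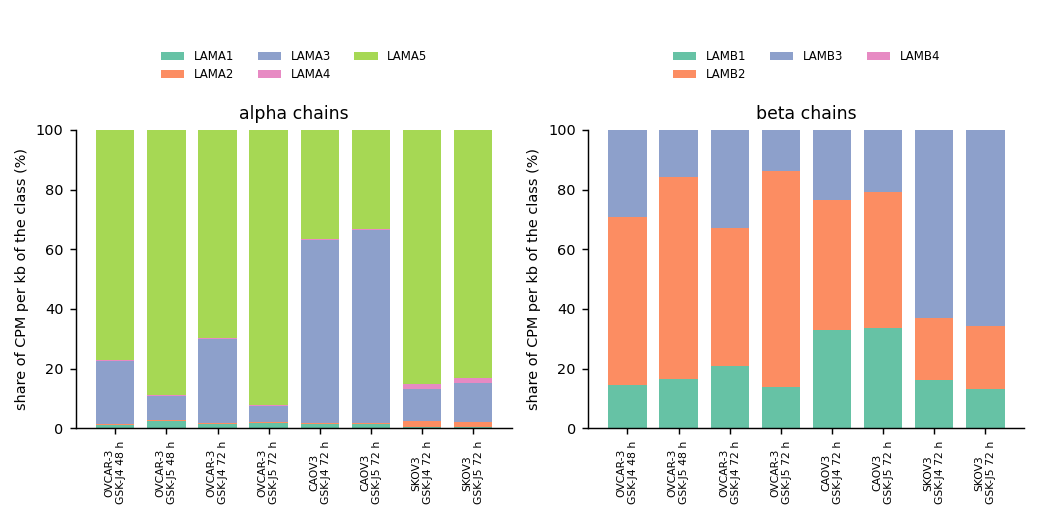
Mean share of each chain in the summed CPM per kb of its class (%), by group, for the alpha chains and the beta chains. LAMA3 and LAMB3 take more of the OVCAR-3 bars with GSK-J4 than with GSK-J5, CAOV3 is the line in which LAMA3 exceeds LAMA5, and SKOV3 the one in which LAMB3 leads.

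CAOV3 showed small, mostly downward differences, which for LAMA3, LAMB1, LAMB2 and LAMA5 were smaller in replicate 3 than in replicates 1 and 2. LAMA3 had 736, 707 and 1089.8 CPM with GSK-J4, against 982, 1079.8 and 1121 CPM with GSK-J5. LAMB2 had 159, 176 and 304 CPM with GSK-J4, against 224, 232 and 298 CPM with GSK-J5. LAMB1 had 162, 170.1 and 220.4 CPM with GSK-J4, against 218, 213 and 222 CPM with GSK-J5. In each of these chains replicates 1 and 2 with GSK-J4 were below every GSK-J5 library and replicate 3 was inside or above their range. The log2 change was -0.35 ± 0.10 for LAMA3, -0.28 ± 0.10 for LAMB2 and -0.25 ± 0.09 for LAMB1 over all libraries, and -0.54 ± 0.07, -0.47 ± 0.08 and -0.40 ± 0.08 in replicates 1 and 2 alone. LAMA5, the chain with the largest difference in CPM in OVCAR-3, had 412, 469 and 576 CPM with GSK-J4, against 506, 523 and 560.2 CPM with GSK-J5, which overlapped. LAMA1, LAMA4, LAMB3 and LAMC1 also overlapped, with log2 changes from -0.39 to -0.02. With all libraries edgeR called 0 of 8 (0.315% of genes), 3 were under an unadjusted p of 0.05 (16.3%) and DESeq2 called 1, LAMA3 (3.9%), and with replicates 1 and 2 alone edgeR called 5, all lower (14.1% of genes). No chain had libraries that did not overlap (12.3% of genes). The chains were listed with this CAOV3 contrast known, so nothing is read from these counts. The epithelial markers summed to 5745 to 5822 CPM with GSK-J4 and 5109 to 5402 CPM with GSK-J5, and their part in these values was not tested.

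SKOV3 also showed small differences, and LAMA3 and LAMB3 were lower with GSK-J4 in place of higher. LAMA3 had 80.4, 68.4 and 27.7 CPM with GSK-J4, against 114, 103 and 31.4 CPM with GSK-J5. LAMB3 had 432, 419.9 and 292 CPM with GSK-J4, against 535, 519 and 323 CPM with GSK-J5. Within each numbered pair the GSK-J4 library was the lower for both chains, although the ranges overlapped through replicate 3. The log2 change was -0.44 ± 0.09 for LAMA3 and -0.25 ± 0.06 for LAMB3. LAMB2 had 174, 167 and 193 CPM with GSK-J4, against 202, 215 and 208 CPM with GSK-J5, the 1 chain whose libraries did not overlap here (3.44% of genes), at log2 -0.23 ± 0.06. LAMC1, the chain with the highest level per kb in this line (155 ± 55.0 CPM per kb with GSK-J5), had 1505, 1354 and 797 CPM with GSK-J4, against 1538, 1609 and 774 CPM with GSK-J5, and differed more by set than by compound. LAMA5 and LAMB1 were also lower in replicate 3 with both compounds, and their log2 changes were -0.16 ± 0.06 and 0.10 ± 0.06. EdgeR called 0 of 8 (0.0412% of genes), both over all libraries and with replicates 1 and 2 alone (0.0908%), while 4 were under an unadjusted p of 0.05 (3.5%) and DESeq2 called 2 (0.112%). Whether the replicate numbers pair the SKOV3 libraries could not be told apart from the library set. With the number as a block edgeR called 2 of 8, LAMA3 and LAMB3, both lower with GSK-J4, where 0.13% of genes were called. Without replicate 2 edgeR also called 2 (0.237% of genes). The chains were listed with this SKOV3 contrast known, so nothing is read from any of these counts.

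The 72 h effect in OVCAR-3 was set against that in the other lines by the interaction term of an edgeR fit over 18 libraries. The log2 effect on LAMA3 and LAMB3 was higher in OVCAR-3 than in CAOV3 (differences of 1.27 ± 0.30 and 0.50 ± 0.16 in log2) and than in SKOV3 (1.34 ± 0.30 and 0.72 ± 0.15). The effect on LAMA5 and LAMB2 was lower in OVCAR-3 than in CAOV3 (-1.39 ± 0.32 and -1.15 ± 0.37) and than in SKOV3 (-1.37 ± 0.32 and -1.21 ± 0.37). These 4 of the 8 chains were called in each comparison, where 19.3% and 20.8% of genes were called, and both comparisons share the OVCAR-3 libraries. The same effects entered the choice of the chains, so nothing is read from the count. With replicates 1 and 2 alone 6 were called in each (41.5% and 42.0%), and without replicate 1, without replicate 2 or without the set term 0 were called in either. Between CAOV3 and SKOV3 edgeR and DESeq2 each called 0 of 8, edgeR 0 of all 20252 genes (0.0%) with 1077 (5.32%) under an unadjusted p of 0.05, and 0 chains were under it, while DESeq2 called 0.0346% of genes. With replicates 1 and 2 alone it again called 0 of 8 (2.26%). The OVCAR-3 effect of 72 h minus that of 48 h was -0.83 ± 0.42 for LAMA5, -1.14 ± 0.49 for LAMB2 and 0.03 ± 0.45 for LAMA3. EdgeR and DESeq2 each called 0 of 8 there (0.00575% of genes by edgeR and 1.4% by DESeq2), 1 was under an unadjusted p of 0.05 (7.35%), and with replicates 1 and 2 alone 4 were called, LAMA1, LAMA5, LAMB2 and LAMC1, each with the lower effect at 72 h (27.0%).

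LAMC3, LAMA2 and LAMB4 of the same family were taken as genes outside the list. LAMC3 had 3.13 ± 1.74 CPM with GSK-J4 and 13.4 ± 4.0 CPM with GSK-J5 in OVCAR-3 at 72 h. Its log2 change was -2.19 ± 0.47 (edgeR adjusted p = 0.07), and in replicates 1 and 2 alone it fell, by 2.79 on the log2 scale (edgeR adjusted p = 5.3e-06). LAMA2, the alpha chain of muscle, was highest in SKOV3, with 7.74 ± 3.86 CPM with GSK-J4 and 8.21 ± 3.01 CPM with GSK-J5, and LAMB4 had at most 0.702 CPM in any library and was not tested.

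Laminin receptors in OVCAR-3 changed at 48 h, where 3 of 12 rose, 2 fell and 7 did not pass (edgeR, 18.9% of all genes called). Without any 1 of the 4 libraries of 48 h edgeR called 0 of all genes in this comparison, and with replicates 1 and 2 alone 3 of the 12 receptors rose and 5 fell, where 59.0% of all genes were called. ITGA3, the integrin subunit that binds the LAMA3 and LAMA5 laminins, rose to 421 ± 27.7 CPM with GSK-J4, against 186 ± 4.05 CPM with GSK-J5 (SD, n = 2; log2 1.21 ± 0.24, edgeR adjusted p = 0.023). ITGA1, a subunit of a receptor for collagens and laminins, rose by 1.24 ± 0.34 (edgeR adjusted p = 0.0432), and the syndecan SDC4 rose by 0.59 ± 0.17 (edgeR adjusted p = 0.0453; chosen after its values were seen). ITGA7, a laminin-binding subunit best known from muscle, fell to 1.20 ± 0.135 CPM with GSK-J4, against 4.61 ± 0.0490 CPM with GSK-J5 (edgeR adjusted p = 0.0477), and SDC1, the main epithelial syndecan, fell by 0.81 on the log2 scale (edgeR adjusted p = 0.0387). Of those that did not pass, ITGB1, the beta subunit that pairs with ITGA3 and ITGA1, had 446 ± 10.4 CPM with GSK-J4 and 466 ± 26.4 CPM with GSK-J5. ITGB4, the hemidesmosome subunit, had 65.8 ± 9.69 CPM with GSK-J4 and 74.8 ± 4.88 CPM with GSK-J5. With all libraries 0 of 12 passed at 72 h in OVCAR-3, CAOV3 or SKOV3 in edgeR, where 7, 4 and 1 were under an unadjusted p of 0.05 (43.1%, 16.3% and 3.5% of all genes) and DESeq2 called 6, 3 and 0 (37.7%, 3.9% and 0.112%). With replicates 1 and 2 alone 3 rose and 7 fell in OVCAR-3 at 72 h, where 71.7% of all genes were called, among them DAG1 (chosen after its values were seen), the alpha and beta dystroglycan gene, by 1.96 on the log2 scale (edgeR adjusted p = 1.8e-06).

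Basement membrane partners of laminin, the collagen IV chains, nidogens, perlecan (HSPG2), agrin (AGRN) and others, were tested as 11 genes. With all libraries 0 of 11 passed in any line or time in edgeR. At an unadjusted p of 0.05 there were 8 in OVCAR-3 at 72 h (43.1% of all genes) and 3 at 48 h (7263 of 17402 genes). There were 4 in CAOV3 (16.3%) and 2 of the 10 tested in SKOV3 (3.5%). In the same order DESeq2 called 8 (37.7% of all genes), 3 (5864 of 17402 genes), 1 (3.9%) and 0 (0.112%). With replicates 1 and 2 alone 7 fell and 1 rose in OVCAR-3 at 72 h, a share near the 71.7% of all genes called in that fit. COL4A1 fell by 3.50 (edgeR adjusted p = 1.8e-05) and AGRN fell by 3.40 (edgeR adjusted p = 4.6e-07) on the log2 scale. COL15A1, a scarce collagen, rose in that fit, with at most 1.06 CPM in any GSK-J4 library of 72 h and 0.137 CPM with GSK-J5. AGRN, which links laminins to cell receptors, had 231 to 1754 CPM over the GSK-J4 libraries of 72 h, against 2169 to 2938 CPM with GSK-J5, with replicate 3 the highest of the GSK-J4 libraries as for LAMA5. The median log2 change of the 11 at 72 h was -1.74, against -0.08 over all genes tested and -0.70 over the 8 laminin chains. In CAOV3 6 of 11 fell with replicates 1 and 2 alone, where 14.1% of all genes were called, led by COL18A1, which fell by 0.85 on the log2 scale (edgeR adjusted p = 9.3e-05), and by COL4A1, which fell by 0.76 (edgeR adjusted p = 0.00644). The partners named here were chosen after their values were seen.

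**Figure D5:**
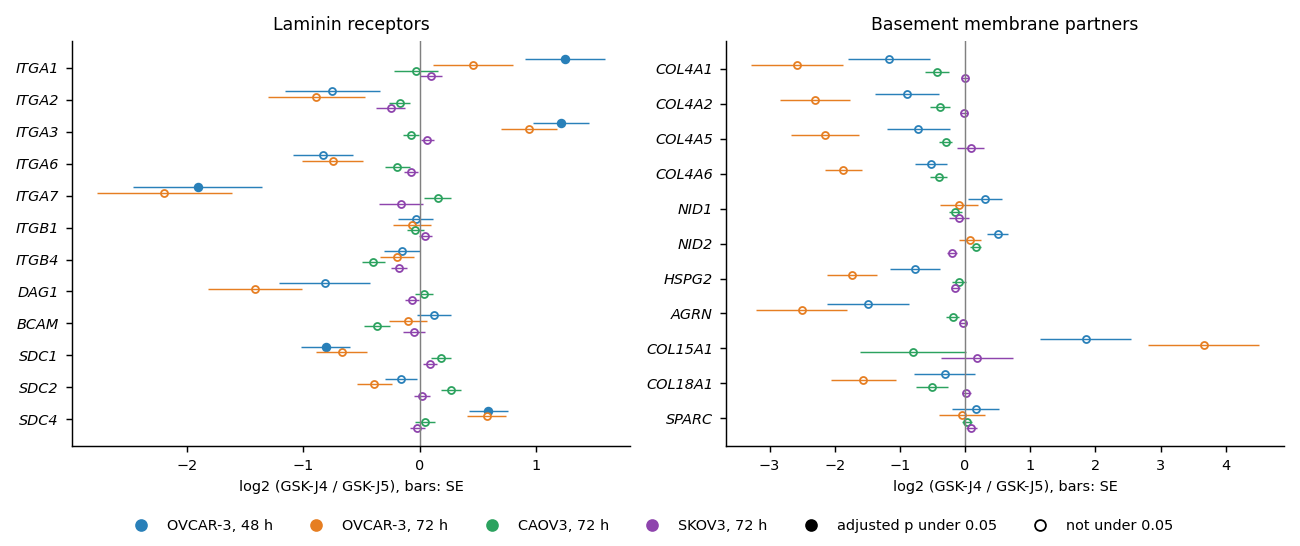
Log2 change of the laminin receptors and of the basement membrane partners with GSK-J4 relative to GSK-J5 in each line and time, with SE bars; filled points passed an adjusted p under 0.05 with all libraries. Filled points are ITGA1, ITGA3, ITGA7, SDC1 and SDC4 at 48 h in OVCAR-3, and for COL4A1, COL4A2, AGRN and HSPG2 the points of CAOV3 and SKOV3 lie closer to 0 than those of OVCAR-3.

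Of the remaining lists in OVCAR-3 at 48 h, NTN4, a netrin that binds laminin gamma chains, was the 1 of 6 netrins that passed (edgeR, 18.9% of all genes called). NTN4 rose by 1.39 ± 0.23 (log2, edgeR adjusted p = 0.0176). Of 7 tested adaptors of integrins, FERMT2 (log2 0.97 ± 0.27) and PXN (0.68 ± 0.14) rose and VCL (-0.51 ± 0.15) fell, at edgeR adjusted p of 0.0425, 0.0248 and 0.0488. Of 5 hemidesmosome partners and 6 proteases that trim laminins, 0 passed in edgeR, with 0 and 0 under an unadjusted p of 0.05 (7263 of 17402 genes). DESeq2 called 0 of the 5 and 0 of the 6 (5864 of 17402 genes). With all libraries edgeR called 0 of their genes at 72 h in OVCAR-3, CAOV3 and SKOV3. Under an unadjusted p of 0.05 there were 2, 1 and 2 netrins, 4, 3 and 0 adaptors, 2, 3 and 2 hemidesmosome partners and 1, 0 and 0 proteases, and DESeq2 called 2, 0 and 1 netrins, 4, 1 and 0 adaptors, 2, 1 and 0 hemidesmosome partners and 0, 0 and 0 proteases. Over all genes the shares were 43.1%, 16.3% and 3.5% under the unadjusted p and 37.7%, 3.9% and 0.112% in DESeq2. The keratins KRT8 (chosen after its values were seen), KRT18 and KRT19 fell in OVCAR-3 at 48 h, with log2 changes of -1.06, -1.16 and -1.59 (edgeR adjusted p = 0.022, 0.0216 and 0.0183), and WT1, a transcription factor found in serous ovarian cancers, fell by 2.08 (edgeR adjusted p = 0.0461). The other epithelial markers, EPCAM and CDH1, were not under an unadjusted p of 0.05. Of the 5 ovarian and Mullerian markers (PAX8, WT1, MUC16, MSLN and SOX17), 2 were under it, against 7263 of 17402 genes. Fibroblast markers in OVCAR-3 at 48 h summed to 12.3 to 13.9 CPM with GSK-J4, against 41.8 to 42.4 CPM with GSK-J5. They were far higher in SKOV3, at 423 to 692 CPM with GSK-J4 and 476 to 590 CPM with GSK-J5 at 72 h. In CAOV3 they summed to 31.6 to 57.8 CPM with GSK-J4 and 51.5 to 54.8 CPM with GSK-J5. The part of these markers in the laminin values was not tested. The endothelial markers summed to at most 8.53 CPM and the leukocyte markers to at most 4.52 CPM in any library.

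Across the 11 same-numbered pairs of all lines and times, the genes whose log2 ratio followed a chain most closely were sought among 12199 genes whose log2 CPM averaged 1 or more. For LAMA5 they were HSPG2, EDC4 and GLI3 (r = 0.992, 0.989 and 0.988), and HSPG2 is the core protein of perlecan. For LAMB2 they were FAM83H, SGSM2 and SASH1 (r = 0.985, 0.985 and 0.982). For LAMA1 they were FOLR1 and SPC24 (r = 0.989 and 0.980), and FOLR1 is the folate receptor common in ovarian cancers. For LAMA3 they were KCTD5, EEFSEC and PPP2R2C (r = 0.985, 0.981 and 0.979), and for LAMB3 ASB6, ZNF408 and IRF2BP1 (r = 0.978, 0.977 and 0.973). LAMC1 was followed by MFHAS1, IGF2R and MBD5 (r = 0.963, 0.955 and 0.953), LAMB1 by TRIM62, MTFR2 and FOXM1 (r = 0.877, 0.846 and 0.844) and LAMA4 by CEP43, ANXA9 and MAP7D2 (r = 0.889, 0.887 and 0.887). The 11 pairs share lines, library sets and the few OVCAR-3 pairs with large ratios, so these values are a description.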

How the data were processed

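The authors deposited raw counts per gene for 22 libraries in 3 tables, joined here by GENCODE identifier (58472 names from the gene name table, 345 from GENCODE 29, 8 unnamed); GRCh38, STAR and DESeq2 are in the submitters' processing notes, without versions or roles, and no source used here gives the counting tool or strand setting. The counts were tested as deposited with edgeR 4.0.16 in R 4.3.3 (quasi-likelihood, TMM scaling, minimum count 10, Benjamini-Hochberg adjustment over all genes, threshold 0.05), with library set as a covariate. CPM are TMM-scaled over the 22 libraries, and per-kb levels use GENCODE 29 exon lengths. The 48 h effect comes from a fit of all 10 OVCAR-3 libraries, levels from the 9 GSK-J5 libraries of 72 h. The column with a shortened title was read as the third OVCAR-3 GSK-J4 library of 72 h. The members and lists were chosen with earlier results of these data known. Named besides the 8 chains were other chains, the 2 called genes with the highest and the 2 with the lowest change per list and comparison, and 3 genes per chain by likeness; exceptions are marked, and some genes that this rule names are not reported here. Same-numbered SKOV3 libraries deviated together (r = 0.385, 0.381 and 0.733). Differently numbered libraries of replicates 1 and 2 did so nearly as much (r = 0.297 and 0.342). Pairing by number in SKOV3 therefore cannot be told apart from the library set. The labels give no pairing in OVCAR-3 or CAOV3, where not every same-numbered r was over 0.1. Alternatives were DESeq2 1.42.0, another scaling, no filter, no set term, a replicate block and left-out libraries. The edgeR step was run on simulated counts with the same spread for every gene and no library set effect. That run therefore does not bear on calls that depend on replicate 3.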

Additional observations from a re-analysis of the deposited data

Results flagged for a closer look

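By the interaction term of the edgeR fit, 4 chains were called at 72 h in OVCAR-3 minus CAOV3 and in OVCAR-3 minus SKOV3. Of all genes, 19.3% and 20.8% were called there. Without replicate 1, without replicate 2 or without the set term 0 chains were called. These differences also entered the choice of the chains, so nothing is read from the count. For LAMA3 the log2 effect in OVCAR-3 minus that in CAOV3 was 1.27, and minus that in SKOV3 1.34. For LAMB3 the corresponding differences were 0.50 and 0.72. For LAMA5 they were -1.39 and -1.37, and for LAMB2 -1.15 and -1.21. The 3 OVCAR-3 libraries with GSK-J4 enter each of these values, and replicate 3 held the smallest OVCAR-3 ratio of the 3 for each of these chains.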

How the results depend on the processing

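Of the 8 chains, edgeR called 0 in OVCAR-3 at 72 h, while DESeq2 called 4, the fit without a filter 1, replicates 1 and 2 alone 7 and the 10-library fit of OVCAR-3 5. In OVCAR-3 at 48 h it called 1, against 2, 2 and 5 under the first 3 of these and 0 with a replicate block. CAOV3 had 0, against 1, 1 and 5, and SKOV3 0, against 2 (DESeq2), 1 (no filter) and 2 (replicate block). The effect of 72 h minus 48 h had 0, against 4 with replicates 1 and 2 alone, and the differences OVCAR-3 minus CAOV3 and OVCAR-3 minus SKOV3 had 4 each, against 0 each without the set term. The GSK-J5 level of OVCAR-3 over CAOV3 had 4, against 8 with replicates 1 and 2 alone. With another scaling (relative log expression) LAMB3 was no longer called in OVCAR-3 minus CAOV3. Over all genes, OVCAR-3 at 72 h had 5 called (DESeq2 6334, no filter 1326, no set term 1, replicates 1 and 2 alone 11673, replicate block 0, 10-library fit 7618) and OVCAR-3 at 48 h 3296 (DESeq2 5864, no set term 811, replicates 1 and 2 alone 10078, replicate block 0). CAOV3 had 54 (DESeq2 668, no filter 832, no set term 0, replicates 1 and 2 alone 2330, replicate block 0) and SKOV3 7 (DESeq2 19, no filter 31, no set term 0, replicates 1 and 2 alone 15, replicate block 22). The effect of 72 h minus 48 h had 1 (DESeq2 244, no filter 20, replicates 1 and 2 alone 4621), OVCAR-3 minus CAOV3 3907 (no set term 681, replicates 1 and 2 alone 8219), OVCAR-3 minus SKOV3 4221 (798 and 8327) and CAOV3 minus SKOV3 0 (DESeq2 7, no filter 87, replicates 1 and 2 alone 448). The causes were not tested. With libraries or replicates left out, chains called ranged from 0 to 7 in OVCAR-3 at 72 h, 0 to 5 at 48 h and in CAOV3, 0 to 2 in SKOV3, 0 to 4 for 72 h minus 48 h, 0 to 6 for OVCAR-3 minus CAOV3 and for OVCAR-3 minus SKOV3, and 0 to 0 for CAOV3 minus SKOV3, and for the levels 4 to 8 (OVCAR-3 over CAOV3), 4 to 8 (OVCAR-3 over SKOV3) and 4 to 7 (CAOV3 over SKOV3). Genes called then ranged from 0 to 11823 in OVCAR-3 at 72 h, 0 to 10078 at 48 h, 0 to 2673 in CAOV3, 4 to 38 in SKOV3, 0 to 4621 for 72 h minus 48 h, 0 to 8219, 0 to 8327 and 0 to 448 for OVCAR-3 minus CAOV3, OVCAR-3 minus SKOV3 and CAOV3 minus SKOV3, and for the levels 6162 to 11608, 6728 to 12081 and 7195 to 12543 in the order above. Without replicate 3 the edgeR counts at 72 h in OVCAR-3 and CAOV3 were 11673 and 2330, against 5 and 54 with it. With replicate 3 kept, DESeq2 called 6334 and 668, so the low counts vary with the method as well. Sign was the same for all 8 chains in every setting in OVCAR-3 at both times. It turned for LAMB3 in CAOV3 in 4 of 15 settings, and in SKOV3 for LAMA1 in 6 and LAMC1 in 1. Every setting kept replicate 1 or 2 of each compound, so the settings share libraries and are not separate checks of a sign. Among single OVCAR-3 pairs of 72 h, LAMA1 in replicate 3 (log2 ratio 0.12) and LAMB1 in replicate 2 (0.03) had the opposite sign. The receptors, netrin, adaptors and markers called at 48 h in OVCAR-3 kept their sign in all 13 alternatives and lost the call in 7 to 9 of them, and LAMC3 was called at 72 h in 7 of 16. In OVCAR-3 and CAOV3 the numbers only name libraries, since their same-numbered deviations did not all correlate over 0.1. In SKOV3 pairing by number could not be told apart from the library set.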
